A study of Homo sapiens with 4 samples.

Results

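Forkhead-motif sites were the binding sites of TRIM24 or TRIM28 in prostate cancer cells that had the FOXA1 recognition sequence in the 200 bp around their centre. They were found by merging 4 lists of ChIP-seq peaks wherever peaks overlapped by at least 1 bp, and by searching the 200 bp of hg19 around each merged centre, on chromosomes 1 to 22 and X, for the FOXA1 10-base consensus on either strand with no mismatch. Of 74101 merged sites, 704 carried it, or 0.950% (95% Wilson interval 0.883 to 1.02). The rule read the reference sequence and the place of a site, and not the number of tags on it. The sites had a median width of 165 bp, so a motif near the edge of the window can lie outside the called site.

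All 4 libraries came from LNCaP, an androgen-responsive prostate cancer line. The TRIM24 pair was an HA immunoprecipitation from LNCaP cells that express HA-tagged TRIM24, after ethanol, the vehicle, or after 10 nM R1881, a synthetic androgen. The TRIM28 pair was an immunoprecipitation of the endogenous protein with the same ethanol and R1881 treatments. Every group had been kept for 3 days in medium with 5% charcoal-stripped serum and then treated for 16 h. The sample labels name the tag for the TRIM24 pair alone, whereas the study's text places both pairs in the HA-TRIM24 line, so the cells of the TRIM28 pair are given here as LNCaP. The tagged protein is expressed from a transgene in addition to the cell's own TRIM24. Each of the 4 groups was 1 library, so no test between treatments or factors could be made, and the intervals given below cover counting error only and treat sites as independent. The peak lists hold no expression values, and LNCaP identity was therefore not checked against marker genes.

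FOXA1 is a pioneer factor of the forkhead family, which can bind its sequence in closed chromatin and open it for other proteins. In luminal prostate cells it occupies enhancers of lineage genes. TRIM24 reads modified histone tails through a PHD finger and bromodomain and acts as a transcriptional coactivator. TRIM28 is a scaffold best known for silencing repeats with KRAB zinc finger proteins, and it also binds TRIM24. The motif is a string of letters in the reference genome. No FOXA1 immunoprecipitation was analysed here, and a motif copy is not shown to be an occupied FOXA1 site.

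The consensus allows either of 2 first letters. AAAGTAAACA was the copy nearest the centre at 442 sites (62.8%) and TAAGTAAACA at 262 sites (37.2%), against 64.3% and 35.7% of the 38630 copies on the same chromosomes. The sequences below run 5′ to 3′ on the strand that reads the motif, with the motif in capitals and 25 bases on each side, in hg19 coordinates. The first set is shown because these 4 sites were bound in all 4 libraries.
SDK2 (chr17:71423506-71423565, minus strand): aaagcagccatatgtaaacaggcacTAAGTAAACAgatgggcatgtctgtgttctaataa
DCDC2C (chr2:3871556-3871615, plus strand): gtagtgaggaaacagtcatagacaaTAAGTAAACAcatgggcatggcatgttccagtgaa
HIPK2 (chr7:139424999-139425058, plus strand): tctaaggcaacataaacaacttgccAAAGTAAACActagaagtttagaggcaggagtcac
PPP1R26 (chr9:138285586-138285645, plus strand): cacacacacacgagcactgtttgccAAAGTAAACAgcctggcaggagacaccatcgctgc
The second set had TRIM24 with R1881, or a TRIM28 signal that was higher with R1881 than with ethanol, or both.
PRR5 (chr22:45041043-45041102, plus strand): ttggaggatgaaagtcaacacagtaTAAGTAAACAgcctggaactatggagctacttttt
FGGY (chr1:60132880-60132939, minus strand): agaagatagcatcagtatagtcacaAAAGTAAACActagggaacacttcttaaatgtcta
MAPK9 (chr5:179686140-179686199, plus strand): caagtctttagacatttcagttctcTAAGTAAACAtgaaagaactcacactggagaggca
C1orf21 (chr1:184392167-184392226, minus strand): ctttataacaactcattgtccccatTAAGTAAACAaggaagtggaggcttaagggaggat
The third set was called for both factors with R1881 and for neither with ethanol.
EFCAB12 (chr3:129143068-129143127, plus strand): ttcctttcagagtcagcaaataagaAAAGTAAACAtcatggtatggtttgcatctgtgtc
ELP5 (chr17:7158453-7158512, plus strand): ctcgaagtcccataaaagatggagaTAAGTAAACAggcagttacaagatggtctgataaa
C1orf87 (chr1:60740586-60740645, plus strand): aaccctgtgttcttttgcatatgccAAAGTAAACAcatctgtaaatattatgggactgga
RPP30 (chr10:92647510-92647569, plus strand): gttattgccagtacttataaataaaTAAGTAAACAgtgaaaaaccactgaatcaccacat
The fourth set was called for both factors with ethanol and for neither with R1881.
ELL2 (chr5:95301867-95301926, minus strand): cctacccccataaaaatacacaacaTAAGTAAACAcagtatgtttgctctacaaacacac
MTMR6 (chr13:25808093-25808152, minus strand): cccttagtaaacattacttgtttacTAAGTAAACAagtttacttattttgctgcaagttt
AKR1D1 (chr7:137774461-137774520, minus strand): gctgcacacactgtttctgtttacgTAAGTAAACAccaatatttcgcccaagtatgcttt
The fifth set holds the site with the most TRIM24 tags, next to a centromere, and the site closest to the start of a forkhead gene.
FAM72B (chr1:121484020-121484079, minus strand): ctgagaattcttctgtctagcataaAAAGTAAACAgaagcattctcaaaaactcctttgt
FOXP1 (chr3:71294387-71294446, plus strand): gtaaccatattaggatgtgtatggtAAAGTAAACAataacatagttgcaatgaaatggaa
The last set gives the whole 200-bp window, on the plus strand, of a site with 2 forkhead copies (UACA) and of both printed sites with an androgen response element (SMIM36 and TBC1D13). Capitals mark the forkhead motif, which reads TGTTTACTTT or TGTTTACTTA where it lies on the minus strand, and in the last 2 windows also the androgen response element.
UACA (chr15:70909479-70909678, plus strand): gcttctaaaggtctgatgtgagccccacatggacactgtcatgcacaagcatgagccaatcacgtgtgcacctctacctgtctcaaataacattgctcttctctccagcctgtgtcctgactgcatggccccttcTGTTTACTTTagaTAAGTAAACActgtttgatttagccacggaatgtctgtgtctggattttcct
SMIM36 (chr17:53685125-53685324, plus strand): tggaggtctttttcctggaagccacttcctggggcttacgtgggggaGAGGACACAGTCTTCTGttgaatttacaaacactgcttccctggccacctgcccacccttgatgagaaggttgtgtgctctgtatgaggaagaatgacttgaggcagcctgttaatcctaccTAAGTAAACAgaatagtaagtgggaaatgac
TBC1D13 (chr9:131564852-131565051, plus strand): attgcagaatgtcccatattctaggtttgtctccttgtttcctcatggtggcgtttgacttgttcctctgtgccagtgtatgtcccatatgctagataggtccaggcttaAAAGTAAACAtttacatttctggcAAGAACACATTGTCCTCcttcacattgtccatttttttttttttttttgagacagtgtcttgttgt

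The motif was more frequent in the windows around the site centres than in windows beside them. It was found in 0.950% of the site windows, in 0.247% and 0.235% of windows of the same length placed 5 kb to the left and to the right, and in 0.259% of 14178079 tiles of 200 bp across the genome. The share in RefSeq promoters of build GRCh38.p14, 300 bases each, was 0.191% (67 of 35116). The gap was also present within a band of base composition, and its cause was not tested. Within windows of 35 to 45% GC, 464 of 26772 sites (1.73%, 1.58 to 1.90) and 0.247% of the genome tiles had the motif. In the 20 bases around the motif, the forkhead-motif sites were richer in GC than the copies elsewhere in the genome, with a mean of 40.9% against 33.6%. The site windows held few of the available copies, 713 of the 38630 (1.85%).

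The copies clustered at the peak centres. The median distance between the middle of the motif and the site centre was 38.5 bp (35.5 to 42.5), and 427 of the 704 sites (60.7%) had the motif within 50 bp. The rule admits only copies inside the 200-bp window, so both values are bounded by it and do not by themselves show the clustering. Counted by distance, the motif had 58.3 copies per Mb within 50 bp of all merged centres and 12.3 per Mb at 1 to 2 kb, a ratio of 4.75. Forkhead-motif sites called in more libraries had the motif closer in, at a median of 42.5 bp (36.5 to 47.5) for 441 sites in 1 library, 35.5 bp (30.5 to 42.5) for 219 sites in 2 libraries and 28 bp (16.5 to 37.5) for 44 sites in 3 or 4 libraries. All of these intervals overlapped each other, those of the first and last groups included, so the order is a description only.

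**Figure D1:**
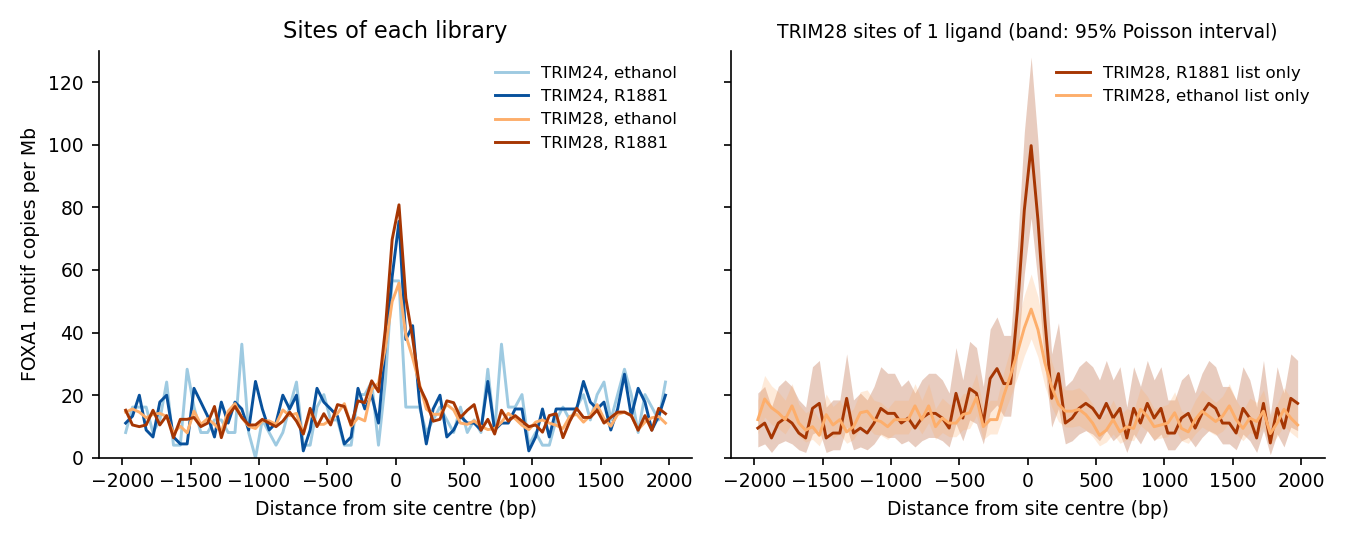
FOXA1 motif copies per Mb (vertical axis) against distance from the site centre in bp (horizontal axis), in 50-bp bins, for the sites of each library (left) and for TRIM28 sites found with 1 ligand only (right, with 95% Poisson intervals as bands). Within 50 bp the R1881-only TRIM28 sites reached 89.4 copies per Mb and the ethanol-only sites 44.5, and at 1 to 2 kb they had 11.6 and 12.2 copies per Mb.

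Most forkhead-motif sites were TRIM28 sites. With ethanol, TRIM28 was called at 496 of the 704 (70.5%, 67.0 to 73.7), against 77.8% of all merged sites. After R1881 it was called at 400 (56.8%, 53.1 to 60.4), against 46.1% of all sites. TRIM24 was called at 37 with ethanol (5.26%, 3.84 to 7.16), against 6.68% of all sites, and at 89 after R1881 (12.6%, 10.4 to 15.3), against 12.1%. Relative to the whole collection, the forkhead-motif sites thus held fewer TRIM28 sites of the vehicle and more of the androgen. With peaks held to a common tag minimum, given below, the TRIM28 share with ethanol stayed lower, at 44.3% against 56.0% of all sites. With R1881 it was 55.7% against 50.5%, a difference within the interval. In the full lists the TRIM24 shares differed from the background by no more than their intervals. Away from promoters the TRIM28 contrast was present with each ligand, since TRIM28 was called at 70.7% (66.9 to 74.2) of 590 forkhead-motif sites and 78.0% of sites without the motif with ethanol, and at 56.4% (52.4 to 60.4) and 47.1% with R1881. Within the 35 to 45% GC band the TRIM28 shares with R1881 were 59.3% (54.7 to 63.6) and 48.8%. Those with ethanol were 69.8% (65.5 to 73.8) and 73.6%, a difference within the interval. For TRIM24 with R1881 the shares away from promoters were 12.5% (10.1 to 15.5) and 9.64%, the latter below the interval. In the GC band they were 13.8% and 10.2%, the latter again below the interval. In promoters the order was reversed, at 13.2% (8.14 to 20.6) and 17.1%, within the interval. The TRIM24 shares with ethanol differed by no more than the intervals in each of these.

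The 2 motif classes chosen for comparison behaved differently. Sites with an androgen response element, a 16-base palindrome taken with at most 1 mismatch, numbered 342, and TRIM24 was called at 2.34% of them with ethanol and 31.9% (27.2 to 37) with R1881, the latter interval lying above the 12.6% of forkhead-motif sites. Sites with a CTCF motif, the sequence of the main insulator protein taken with at most 3 mismatches, numbered 541, with TRIM24 at 2.40% and 2.77% (1.69 to 4.52), below the forkhead-motif sites after R1881. For TRIM28 with R1881 the forkhead-motif share of 56.8% lay between the CTCF class at 48.4% (44.2 to 52.6) and the androgen response element class at 64.6% (59.4 to 69.5), whose interval overlapped that of the forkhead-motif sites.

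**Figure D2:**
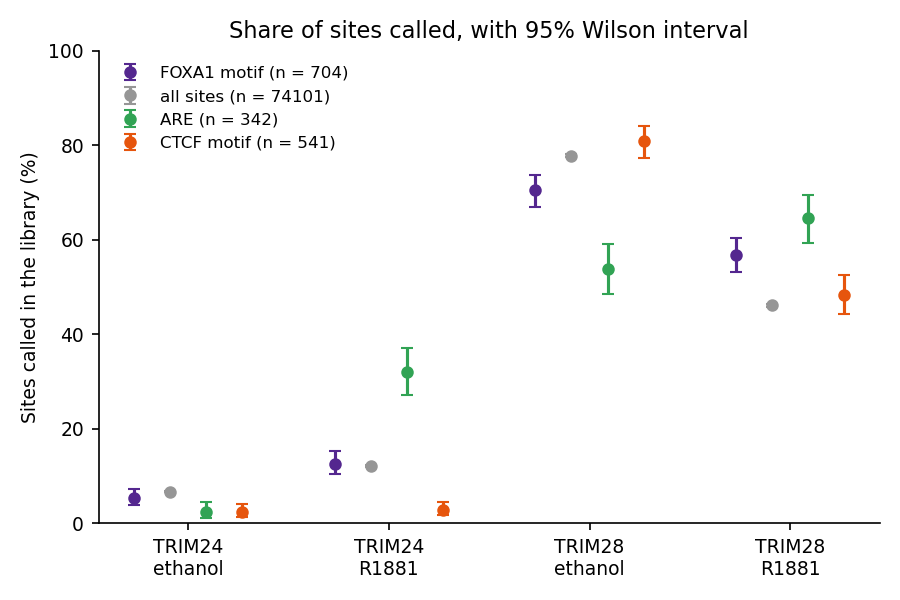
Percentage of sites (vertical axis) called in each of the 4 libraries (horizontal axis) for forkhead-motif sites, all sites, sites with an androgen response element (ARE) and sites with a CTCF motif, with 95% Wilson intervals. The forkhead-motif sites lie below all sites for TRIM28 with ethanol (70.5% against 77.8%) and above them for TRIM28 with R1881 (56.8% against 46.1%).

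The libraries were not equal in depth, which bears on every count of calls. The TRIM24 libraries held 11606880 tags (ethanol) and 12884097 (R1881), the TRIM28 libraries 25145171 (ethanol) and 14231181 (R1881), and between 1.36% and 4.95% of these lay in peaks. The tag minimum of the peak caller was 4.77 normalized tags (tags per 10000000) in the deepest library and 6.32 to 7.75 in the others, and each list also held some peaks below its minimum. These totals are those of the file headers, whereas the study's methods describe reads drawn at random to equal numbers. Forkhead-motif sites were mostly weak, with medians equal to or near those of all sites. For TRIM24 their median was 9.50 normalized tags with ethanol and 9.30 with R1881, against 10.3 and 9.30 over all sites, and for TRIM28 it was 6.40 and 7.70, the same as over all sites. In 10 of the 704 sites any library reached 20 normalized tags, a count that was not made over all sites.

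The strength of a peak was not related to the presence of the motif in a clear order. In the TRIM28 R1881 list the motif share was 1.08%, 1.35%, 1.05% and 1.21% from the weakest to the strongest of 4 equal parts, and in the TRIM24 R1881 list 0.977%, 1.07%, 0.844% and 1.07%. In the TRIM24 ethanol list the share went from 0.888% (0.496 to 1.58) in the weakest part to 0.404% (0.173 to 0.942) in the strongest, with overlapping intervals and 5 sites in the latter.

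Between ethanol and R1881 the number of forkhead-motif sites differed in opposite directions for the 2 factors in the deposited lists. TRIM24 went from 37 to 89 sites, a log2 ratio of 1.27 (0.698 to 1.86), against 0.862 for all TRIM24 sites. TRIM28 went from 496 to 400, a log2 ratio of -0.310 (-0.504 to -0.117), against -0.757 for all TRIM28 sites. The TRIM28 direction turned when peaks were held to a common minimum of 7.75 normalized tags, with 127 forkhead-motif sites for ethanol and 160 for R1881, a log2 ratio of 0.333 (-0.0119 to 0.681), where all TRIM28 sites gave -0.148. It turned as well when a local fold of at least 8 was required, with 155 and 263 sites and a log2 ratio of 0.763 (0.471 to 1.06), where all TRIM28 sites gave 0.384. In each of these settings the log2 ratio of the forkhead-motif sites was above that of all sites. For TRIM28 the unequal depth of its libraries and an effect of the ligand on the number of sites cannot be told apart. The TRIM24 libraries differed less in depth, with tag minimums of 7.75 (ethanol) and 6.99 (R1881) normalized tags. With 1 library per treatment, a library difference and a ligand effect cannot be told apart for TRIM24 either.

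Sorted by call, 185 forkhead-motif sites had TRIM28 with R1881 and not with ethanol (26.3%, 23.2 to 29.7), against 17.1% of all sites. The reverse, TRIM28 with ethanol and not with R1881, took 281 (39.9%, 36.4 to 43.6), against 48.8%. For TRIM24, 75 sites were called with R1881 only (10.7%, 8.58 to 13.1), against 8.97%, and 23 with ethanol only (3.27%, 2.19 to 4.85), against 3.50%. Read the other way, the motif was present in 1.46% (1.27 to 1.69) of R1881-only TRIM28 sites and 0.777% (0.691 to 0.872) of ethanol-only TRIM28 sites, and these intervals do not overlap. The profile of copies around the centres had the same order, at 89.4 per Mb (73.7 to 107) and 44.5 per Mb (37.9 to 51.9) within 50 bp.

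**Figure D3:**
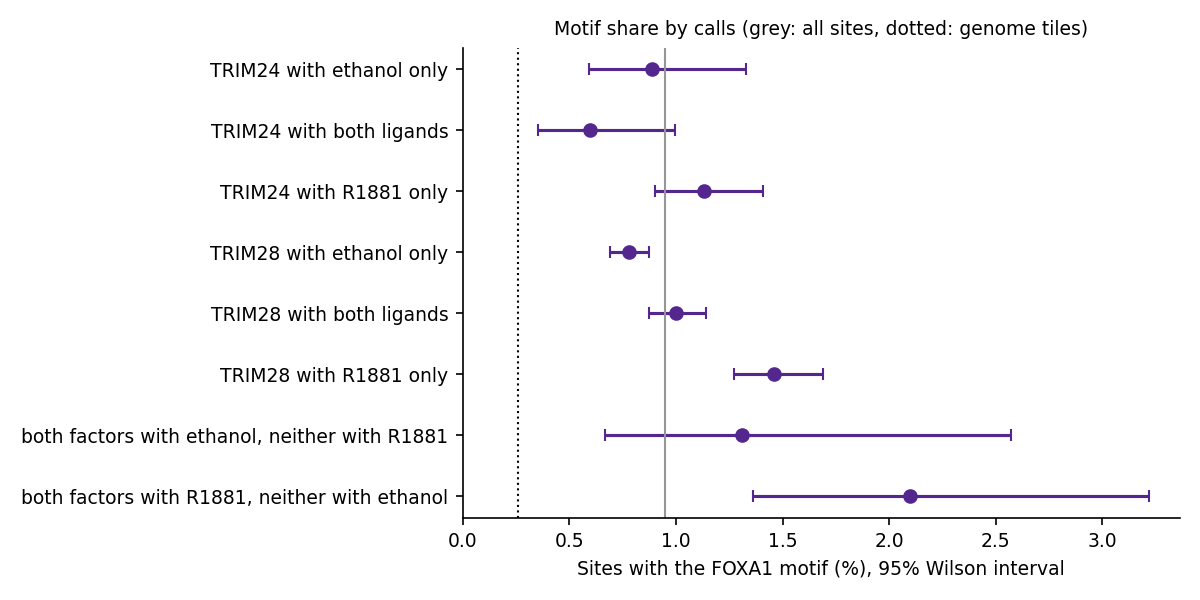
Percentage of sites that hold the FOXA1 motif (horizontal axis) by the calls of the site (vertical axis), where "only" refers to the same factor without the other ligand. Points carry 95% Wilson intervals, the grey line marks all sites (0.950%) and the dotted line genome tiles (0.259%). R1881-only TRIM28 sites (1.46%) lie above ethanol-only TRIM28 sites (0.777%).

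TRIM28 was called with both ligands at 215 forkhead-motif sites, whose median was 7.20 normalized tags with ethanol and 7.70 with R1881. The tags were higher with R1881 at 138, lower at 74 and equal at 3. The median log2 ratio was 0.183 (0.107 to 0.271), against 0.0849 at all 21502 TRIM28 sites called with both ligands. A site missing from at least 1 of the lists is not among these pairs, for forkhead-motif and all sites alike. The TRIM28 tag minimum was 4.77 normalized tags with ethanol and 6.32 with R1881. A site weak with ethanol could therefore enter mainly with higher R1881 tags, which bears on the counts given here. With the common minimum the median log2 ratio was 0.144 (0.0496 to 0.221) over 59 sites, and it was not computed over all sites. Tags were at least 1.5-fold higher with R1881 at 43 of the 215 (20%, 15.2 to 25.9), against 13.1% of all such sites, and at least 1.5-fold lower at 7 (3.26%, 1.59 to 6.57), against 7.00%.

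The highest TRIM28 ratio belonged to a site inside MAPK9, the gene of the stress kinase JNK2, 1572 bp from the start of an annotated processed pseudogene. It had 7.2 normalized tags with ethanol and 22.5 with R1881, a ratio of 3.12 (exact binomial interval 1.71 to 5.94), and it was not called for TRIM24. BLK, a tyrosine kinase gene of the Src family, had 5.2 tags with ethanol and 15.5 with R1881 at an intronic site, a ratio of 2.98 (1.44 to 6.46), and TRIM24 was called there with R1881 at 11.6 tags. The intergenic site 23.3 kb upstream of PRR5, which encodes a component of the mTORC2 kinase complex, had 8.7 and 25.3 tags, a ratio of 2.91 (1.66 to 5.16), and TRIM24 with R1881 at 23.3 tags. These sites were chosen for their high ratios out of 215, so their intervals are a description only. In an intron of FGGY, a carbohydrate kinase gene, TRIM28 went from 8.7 to 24.6 tags, a ratio of 2.83 (1.60 to 5.03), and TRIM24 was called with R1881 at 7.0 tags.

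Low TRIM28 ratios were closer to 1. An intronic site of MAGI2, a membrane scaffold gene, had 10.3 normalized tags with ethanol and 5.6 with R1881, a ratio of 0.544 (0.213 to 1.24). The promoter site of STX3, a syntaxin gene of vesicle fusion, 65 bp downstream of its start, had 13.9 and 8.4 tags, a ratio of 0.604 (0.286 to 1.20). Both intervals include 1.

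**Figure D4:**
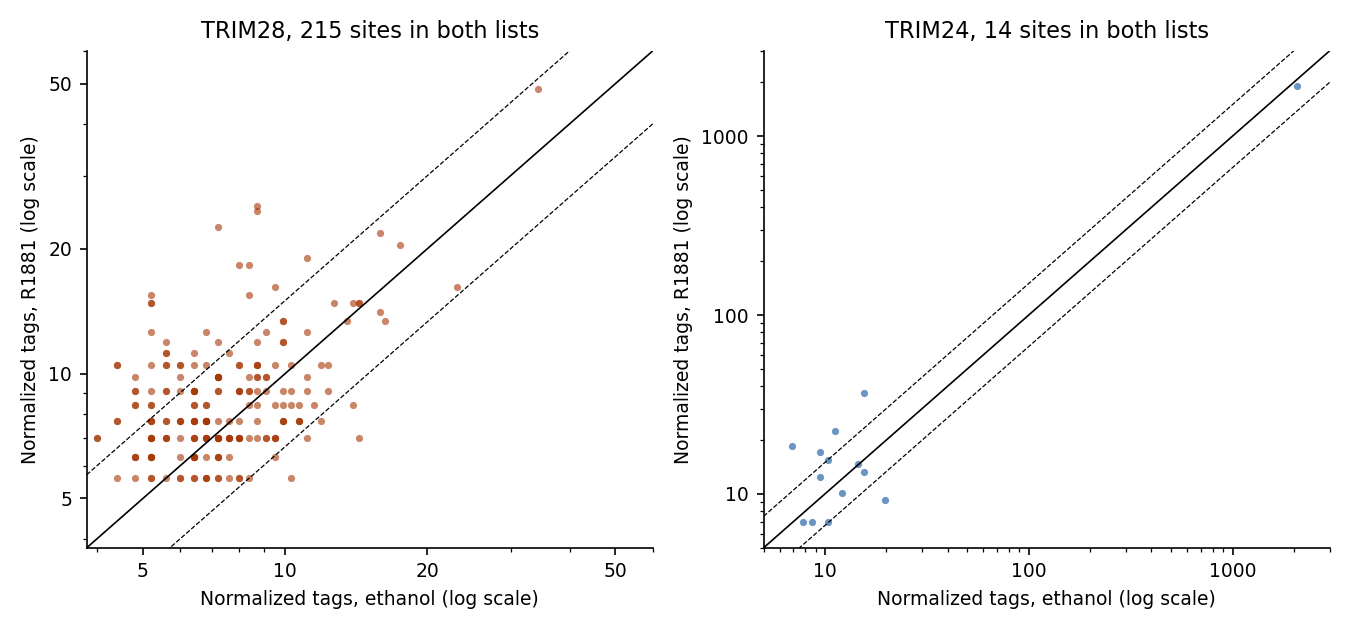
Normalized tags with R1881 (vertical, log scale) against ethanol (horizontal, log scale) at forkhead-motif sites called with both ligands, for TRIM28 (left, 215 sites) and TRIM24 (right, 14 sites). The solid line marks equal values and the dashed lines a 1.5-fold difference. More TRIM28 points lie above the upper dashed line (43) than below the lower one (7), and 1 TRIM24 point near 2000 tags stands apart. The TRIM28 tag minimum was lower with ethanol (4.77) than with R1881 (6.32), which bears on these counts.

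TRIM24 was called with both ligands at 14 forkhead-motif sites. Their median log2 ratio of R1881 over ethanol tags was -0.0520 (-0.297 to 1.01), against -0.0283 at all 2357 such sites, with 7 sites higher and 7 lower. At least 1.5-fold higher were 5 of the 14, against 15.2% of all such sites, and at least 1.5-fold lower was 1, against 10.9%. HIPK2, the gene of a nuclear serine/threonine kinase, had the highest ratio, with 6.9 normalized tags with ethanol and 18.6 with R1881 (2.70, 1.17 to 6.96) at an intronic site 8.2 kb from the nearest coding start. EPB41L5, a FERM-domain gene of epithelial polarity, had the lowest, with 19.8 and 9.3 tags (0.470, 0.213 to 0.984) at an intronic site. The HIPK2 and EPB41L5 sites were chosen as the extremes of the 14, so their intervals are a description only. TRIM28 at the EPB41L5 site went the other way, from 6.8 to 12.6 tags, a ratio of 1.85 (0.910 to 3.86) whose interval includes 1.

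A single TRIM24 site stood apart from all others. It lay at chr1:121484028-121484184, next to the centromere, 644.7 kb from the nearest coding start, that of FAM72B, and held 2069.5 normalized tags with ethanol and 1912.4 with R1881. No other forkhead-motif site reached 50 normalized tags in any library. Its local fold, the tags over those of the surrounding 10 kb, was 4.63 and 4.72, close to the minimum of 4 that the peak caller asked for, and TRIM28 was not called there. A further forkhead-motif site that was also nearest to FAM72B had 8.5 tags for TRIM24 with R1881, and its motif with 10 bases on each side occurred 50 times in the genome. The 60 bases around its motif matched those of the strongest site at 43 of 60 positions without gaps. Without the strongest site the median log2 ratio of TRIM24 tags was 0.00985 (-0.297 to 1.01) over 13 sites and the log2 ratio of TRIM24 site numbers 1.29 (0.715 to 1.89).

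Some members share their sequence with each other. The motif with 10 bases on each side occurred once in the genome for 669 of the 704 sites (95%), and more than once for 35. Of these, 6 on chromosome 15 shared 1 stretch of 30 bases that occurs 18 times in the genome, 4 of them in GOLGA8 family genes and the others nearest to FAN1 and OR4F6. Another 6 on chromosome 10, near FAM25 genes, AGAP8, ANXA8L2, PTPN20B and MSMB, shared a stretch that occurs 11 times. Tags in such places could come from any of the copies. The 12 sites had TRIM28 calls alone, with 4.4 to 8.4 normalized tags. The chromosome 15 group had 4 calls with ethanol and 2 with R1881, and the chromosome 10 group 4 with R1881, 1 with ethanol and 1 with both. Without the 35 sites the TRIM28 shares were 70.7% with ethanol and 56.5% with R1881.

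At 57 of the 704 sites both factors were called with R1881 (8.10%, 6.30 to 10.3), against 6.33% of all sites, and at 26 both were called with ethanol (3.69%, 2.53 to 5.36), against 4.43%. Of the 89 TRIM24 sites after R1881, 57 were also TRIM28 sites (64.0%, 53.7 to 73.2), against 52.1% over all TRIM24 sites of that library. Of the 37 after ethanol, 26 were shared (70.3%, 54.2 to 82.5), against 66.2%. In the other direction 14.2% of the TRIM28 forkhead-motif sites after R1881 and 5.24% after ethanol had TRIM24, against 13.7% and 5.68%. With the common minimum, 32 of 78 TRIM24 sites after R1881 (41.0%, 30.8 to 52.1) had TRIM28, against 36.3% of all 7440, a difference within the interval.

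A group of 20 sites had both factors with R1881 and neither with ethanol (2.84%, 1.85 to 4.35), against 1.29% of all sites. The motif was present in 2.10% (1.36 to 3.22) of the 953 sites with this set of calls. The strongest by the geometric mean of both libraries lay in an intron of EFCAB12, with 11.6 normalized tags for TRIM24 and 11.2 for TRIM28, in the promoter of ELP5, a subunit gene of the Elongator complex, with 10.9 and 11.9, in intergenic DNA 201.2 kb from C1orf87, with 12.4 and 10.5, in an intron of RPP30, a subunit gene of RNase P, with 16.3 and 7.7, and in a promoter of STYXL2, with 12.4 and 9.8. The motif lay 9.5 bp from the centre at EFCAB12 and 80.5 bp from it at RPP30. Over the 20 sites TRIM24 ranged from 7.0 to 16.3 tags and TRIM28 from 6.3 to 11.9. Absence from the ethanol lists means that no peak was called there, and not an absence of signal.

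The reverse set, both factors with ethanol and neither with R1881, had 8 sites (1.14%, 0.577 to 2.23), against 0.822% of all sites. ELL2, the gene of a transcription elongation factor induced by androgen in prostate cells, had 12.9 normalized tags for TRIM24 and 5.2 for TRIM28 at a site 4.3 kb upstream of its start. The site 53.5 kb from MTMR6 had 12.1 and 8.0 tags, and the site 33.8 kb from HOPX, a homeodomain-only protein gene, had 10.3 and 9.9. AKR1D1, which encodes the steroid 5-beta-reductase, had 9.5 and 6.0 tags at a site inside the gene, and the intergenic site nearest to SARAF had 8.6 and 6.8.

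In all 4 libraries 11 sites were called (1.56%, 0.875 to 2.78), against 1.95% of all sites. The strongest was in an intron of SDK2, an immunoglobulin-family cell adhesion gene, at chr17:71423312-71423619. TRIM24 had 15.5 normalized tags with ethanol and 36.5 with R1881, a ratio of 2.35 (1.34 to 4.30), and TRIM28 had 34.2 and 48.5, a ratio of 1.42 (1.02 to 1.97). It had the most tags of all forkhead-motif sites in both TRIM28 libraries. The site 85.3 kb from PPP1R26, a regulatory subunit gene of protein phosphatase 1, had 10.3 and 15.5 tags for TRIM24 and 15.9 and 14.1 for TRIM28. The HIPK2 site had TRIM28 at 11.1 and 19.0 tags, and DCDC2C, a doublecortin-domain gene, had 11.2 and 22.5 for TRIM24 and 9.5 and 16.2 for TRIM28 in an intron. VWC2L was nearest to a site in SPAG16 with 14.6 and 14.7 tags for TRIM24 and 7.6 and 7.7 for TRIM28, a ratio of 1.01 for each factor, with intervals of 0.496 to 2.06 and 0.440 to 2.26.

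Other strong sites were called in fewer libraries. An intronic site of C1orf21 had 32.6 normalized tags for TRIM24 with R1881 and was not called for TRIM24 with ethanol, while TRIM28 was at 13.9 and 14.8 tags, a ratio of 1.06 (0.586 to 1.87). For TRIM28 with ethanol the next sites after SDK2 lay in CATSPERE, nearest to the start of DESI2, with 23.1 tags and 16.2 after R1881, 419.3 kb from RGMB, a BMP co-receptor gene, with 17.5 and 20.4, and 4.4 kb upstream of AKIRIN1, a nuclear protein gene, with 16.3 and 13.4.

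By position, forkhead-motif sites lay mostly outside promoters. Of the 704, 114 (16.2%, 13.7 to 19.1) were within 2 kb of the start of any annotated transcript, against 33.3% of all sites, 368 (52.3%, 48.6 to 55.9) were in introns, against 37.8%, and 198 (28.1%, 24.9 to 31.6) were between genes, against 26.1%. The remaining 24 lay in exons, of which 11 were in 3′ UTRs, 2 in 5′ UTRs, 3 in coding and 8 in noncoding exons. The median distance to a coding start was 39.5 kb (35.5 to 45.9), against 22.9 kb.

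Base composition also differed, and its part in the low promoter share was not tested. The windows of forkhead-motif sites had a median GC of 40% against 47.5%, and 28.1% had no CpG against 17.0%. Within windows of 35 to 45% GC, 15.1% (12.1 to 18.6) of the forkhead-motif sites and 13.7% (13.3 to 14.1) of the sites without the motif were in promoters. The promoter share of forkhead-motif sites was alike in the 4 libraries, at 16.2% and 16.9% for TRIM24 with ethanol and R1881 and 15.9% and 16.8% for TRIM28, whereas sites without the motif gave 47.8%, 47.2%, 33.4% and 31.8%.

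**Figure D5:**
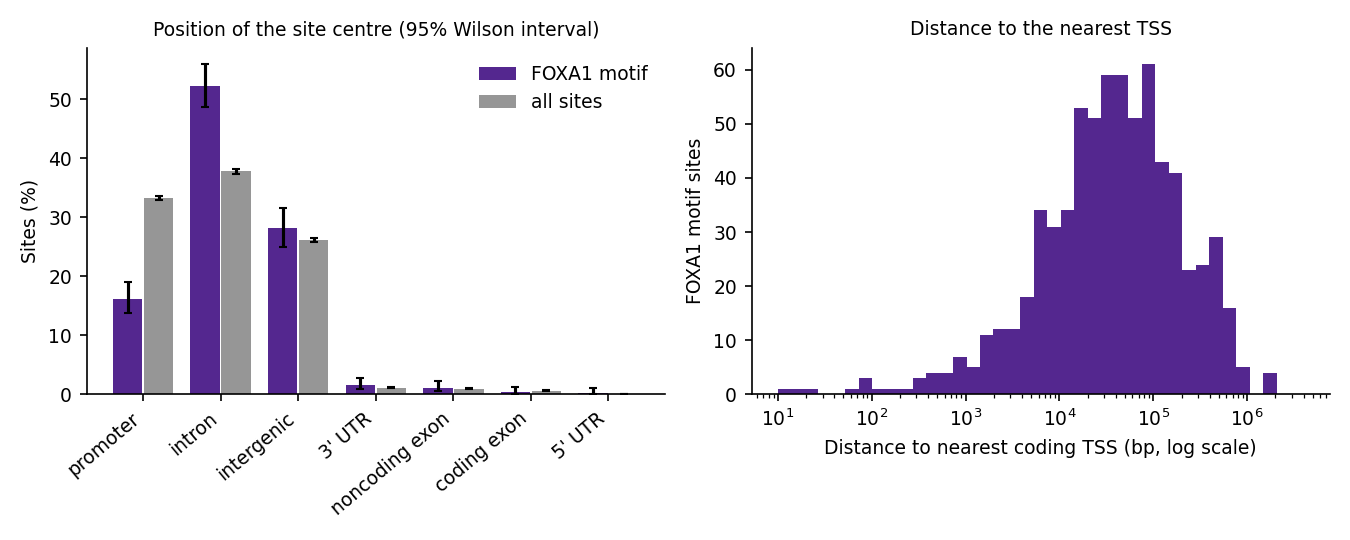
Left, percentage of forkhead-motif sites and of all sites (vertical axis) by annotated place (horizontal axis), with 95% Wilson intervals. Right, number of forkhead-motif sites (vertical axis) by distance to the nearest coding transcription start in bp (horizontal axis, log scale). Promoters hold 16.2% of forkhead-motif sites and 33.3% of all sites.

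By chromosome the motif share ran from 0.328% on chromosome 19 (8 of 2439 sites) to 1.63% on chromosome 13 (19 of 1169). Chromosome 1 held the most forkhead-motif sites, 88, and also the most merged sites, 8334, a motif share of 1.06%. The forkhead-motif sites were scattered. Only 3 neighbouring pairs were within 10 kb of each other and 23 within 100 kb, and the 704 sites had 669 different nearest coding genes. DLG2, a synaptic scaffold gene, was nearest to 3 of them and 33 genes were nearest to 2. Inside a coding gene lay 386 sites (54.8%). The pair counts and this share were not computed over all sites.

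Copies were mostly single. There were 696 sites with 1 copy, 7 with 2 and 1, near NRSN1, with 3, called for TRIM28 with ethanol at 4.4 normalized tags. The UACA site printed above had its pair on opposite strands and was called for TRIM28 with R1881 at 11.2 tags. An intron of CNTNAP2, a neurexin-family gene, and the site nearest to MARCKS each had 2 copies and 4.4 tags with ethanol and 7.7 with R1881 for TRIM28, a ratio of 1.75 (0.695 to 4.49). SLC23A2, the gene of a vitamin C transporter, had 2 copies in tandem and 5.2 and 7.0 tags. The 7-base forkhead core GTAAACA, searched on both strands outside the 10-base copies, occurred at a further place in 63 of the 704 windows (8.95%, 7.06 to 11.3), against 7.60% of windows without the motif. Within the 35 to 45% GC band these shares were 9.91% (7.52 to 13.0) and 12%.

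Androgen response elements were about as frequent in these windows as in those of the other sites. Of the 704 sites, 3 (0.426%, 0.145 to 1.25) held an androgen response element, against 0.462% of sites without the forkhead motif. The site nearest to CLVS1 had TRIM24 with R1881 at 11.6 normalized tags and TRIM28 at 5.6 with ethanol and 11.9 with R1881, a ratio of 2.12 (0.995 to 4.70). The SMIM36 site had TRIM24 with R1881 at 7.8 tags and TRIM28 at 6.4 and 9.1. TBC1D13, a GTPase-activating protein gene, had TRIM28 with R1881 alone, at 9.1 tags. None of the 3 was called for TRIM24 with ethanol.

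Other motifs of prostate factors were searched by name in the same windows. The NF1 half-site was in 33 (4.69%, 3.36 to 6.51), against 4.41% of sites without the forkhead motif, and the Nkx3.1 motif, with 1 mismatch, in 18 (2.56%, 1.62 to 4.01) against 1.63%. The ERG motif was in 4 windows (0.568%, 0.221 to 1.45), above the 0.136% of sites without the forkhead motif, although within the 35 to 45% GC band it was in 1 (0.216% against 0.114%). GRHL2, with 3 mismatches, was also in 4 (0.568%, 0.221 to 1.45), against 0.852%, and CTCF was in 2 (0.284%, 0.0779 to 1.03), against 0.734%. In the 35 to 45% GC band the Nkx3.1 share was 3.02% against 2.63%.

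Among 96 androgen-response genes, 10 (10.4%) were the nearest coding gene of a forkhead-motif site, against 3.39% of 19748 coding genes. These genes had 12 such sites, which is 1.70% (0.978 to 2.96) of the 704, against 1.08% of all sites that were nearest to a gene of this list. Genes of this list are near many sites, since 99.0% of them and 78.8% of all coding genes were nearest to some merged site. Among the 10 were ACSL3, ELL2, INPP4B, IQGAP2, MAF, PTPN21, SEC24D, SGK1 and TMPRSS2, with ELL2 and MAF at 2 sites each. Apart from the first ELL2 site, TRIM28 alone was called at these sites. SEC24D, a COPII coat gene, had 9.5 normalized tags with ethanol in an intron, and INPP4B, a phosphoinositide phosphatase gene, had 8.4. TMPRSS2, the androgen-induced serine protease gene fused to ERG in many prostate tumours, was nearest to a site 49.4 kb upstream with 5.2 tags with ethanol. That TMPRSS2 site lay 59 bp from the start of PCSEAT, another annotated gene. At the INPP4B and TMPRSS2 sites the motif was 90.5 bp from the centre, just outside the called site.

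Several of the list were called with R1881, some of them with ethanol as well. ACSL3, a fatty acid activation gene, had 6.3 normalized tags and SGK1, a steroid-induced kinase gene, had 5.6, both for TRIM28 with R1881 alone. The MAF sites, near the gene of a basic leucine zipper factor, had 6.3 tags with R1881 alone at one and 6.0 with ethanol and 5.6 with R1881 at the other. An intronic site of PTPN21, a tyrosine phosphatase gene, had 5.2 and 7.0 tags, a ratio of 1.35 (0.533 to 3.36). IQGAP2, a scaffold gene, was nearest to a site in the 3′ UTR of SV2C with 5.6 tags with R1881. The second ELL2 site, 150.4 kb upstream, also had 5.6 tags with R1881.

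Of 32 prostate transcription factor genes, NFIA alone (3.12%) was nearest to forkhead-motif sites, against 3.39% of all coding genes. Its sites were 0.284% (0.0779 to 1.03) of the 704, against 0.540% of all sites nearest to a gene of this list. NFIA encodes a nuclear factor I protein, and both sites were intronic, with 6.0 normalized tags for TRIM28 with ethanol at one, and 7.8 for TRIM24 with R1881 and 6.8 for TRIM28 with ethanol at the other. Of 37 forkhead family genes, FOXN3 and FOXP1 (5.41%) were nearest to such sites, and the sites were 0.426% (0.145 to 1.25) of the 704 against 0.382% of all sites. The site shares of both lists thus lay near the background. FOXN3 had 2 intronic sites, one with TRIM28 at 8.7 tags with ethanol and 7.0 with R1881 and the other with 5.2 with ethanol alone. FOXP1 had the site printed above, 173 bp upstream of a coding start, with TRIM28 at 7.0 tags with R1881 alone. Its motif was 88.5 bp from the centre, just outside the called site. None of 25 coregulator and TRIM family genes was nearest to a forkhead-motif site, against 0.270% of all sites that were nearest to one of them.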

How the data were processed

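ChIP-seq peak lists of 4 libraries were analysed, 1 each for TRIM24 and TRIM28 with ethanol and R1881. According to the study's methods and the file headers, the authors aligned reads to hg19 with BWA 0.6.1 and called peaks with HOMER 4.1 (factor style), which kept 1 tag per base, controlled the false discovery rate at 0.001 and required 4-fold more tags than in the surrounding 10 kb at a Poisson p-value of 1e-04. No input library appears in the commands of the file headers. The deposited values used were the normalized tag count of each peak, a signal scaled by the authors to 10000000 tags, and the fold change (ratio) over the local region. The deposited focus ratio (a fraction), peak score, clonal ratio and p-value columns were read and not used for any result. Multiplying by the total tags gave whole tags for 100% of values, to within 0.05 normalized tags.

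Peaks on chromosomes 1 to 22 and X were merged if they shared at least 1 bp, and the 200 bp around each centre was read from GRCh37, whose chromosomes contained every peak. Motif consensus letters came from the study's motif table. The nearest gene was the GENCODE 44 (GRCh37) coding gene with the closest transcription start, and a promoter was within 2 kb of any start. Places were given in the order promoter, UTR, coding exon, noncoding exon, intron and intergenic. Shares have Wilson intervals, medians order-statistic intervals, site-number and tag ratios exact binomial intervals, and tag densities Poisson intervals, all at 95%. Tables were handled with pandas 2.3.3 and numpy 2.4.6, intervals computed with scipy 1.17.1 and plots drawn with matplotlib 3.10.9, under Python 3.11.15. Merging, motif search and distances were tested on simulated data.

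Named sites were the 5 with the most tags per library, up to 5 each called in all 4 libraries, in both R1881 libraries only and in both ethanol libraries only, those with an androgen response element, up to 5 with 2 or more copies, the 3 highest and 3 lowest ligand ratios per factor, and those nearest to a listed gene. The members, motifs and gene lists were chosen with earlier results of these data known. The alternatives covered window length, mismatches, merging, centres, peak strength, promoter width and base composition. Sites on chromosome Y and on unplaced contigs were not analysed here. A motif and a few sites chosen by these rules are not reported here.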

Additional observations from a re-analysis of the deposited data

Results flagged for a closer look

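The number of forkhead-motif sites went up with R1881 for TRIM24, at a log2 ratio of 1.27 (37 to 89 sites), and down for TRIM28, at a log2 ratio of -0.310 (496 to 400 sites). The pair of factors moved in opposite directions under the same treatment, each in 1 library per condition, and the difference between them was not tested. All merged sites moved the same way, at log2 ratios of 0.862 for TRIM24 and -0.757 for TRIM28, and the TRIM28 value for forkhead-motif sites turned to 0.333 with a common minimum of 7.75 normalized tags and to 0.763 with a local fold of at least 8. The TRIM28 libraries differed in depth (25145171 tags with ethanol and 14231181 with R1881) and in tag minimum (4.77 and 6.32 normalized tags), while the TRIM24 libraries were closer (11606880 and 12884097 tags).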

How the results depend on the processing

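Across 13 results, 102 of 134 recomputed values stayed within the 95% interval of the value given, 30 moved outside it and 2 changed sign. The TRIM28 log2 ratio of site numbers turned from -0.310 to 0.333 with a common minimum of 7.75 normalized tags and to 0.763 with a local fold of at least 8, and it was -0.551 with 1 mismatch in the motif. The median TRIM28 log2 ratio at sites called with both ligands was 0.275 when the local fold replaced tags, and within its interval otherwise.

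The share of all sites with the motif followed the search itself, at 0.536% in a 100 bp window, 1.45% in 400 bp, 10.2% with 1 mismatch, 1.06% with a local fold of at least 8 and 1.73% in windows of 35 to 45% GC, a setting added after seeing the data. The median motif distance was 22.5 bp in the 100 bp window, 66.5 bp in the 400 bp window and 34.5 bp with the common minimum. The shares called moved with peak strength. With the common minimum they were 12.9% and 27.2% for TRIM24 with ethanol and R1881, against 16.6% and 25.9% of all sites. For TRIM28 with ethanol and R1881 they were 44.3% and 55.7% (50 to 61.4), against 56.0% and 50.5% of all sites under the same minimum. The difference for TRIM28 with R1881 lay within the interval. With a local fold of at least 8 they were 7.65%, 18.7%, 40.9% and 69.4% in the order TRIM24 ethanol, TRIM24 R1881, TRIM28 ethanol and TRIM28 R1881, against 11.2%, 18.4%, 49.1% and 64.0% of all sites. In the stronger 50% of each list they were 3.37% for TRIM24 with ethanol and 65.5% for TRIM28 with ethanol, against 6.78% and 75.3% of all sites, and with 1 mismatch 73.7% and 50.3% for TRIM28 with ethanol and R1881. The share of TRIM24 R1881 sites with TRIM28 was 74.1% in the 100 bp window, 41.0% with the common minimum (36.3% over all sites) and 53.5% with a local fold of at least 8 (40.2% over all sites). The promoter share was 6.25% with coding starts only, 8.81% at 1 kb and 30.8% at 5 kb. The share with an androgen response element was 0.142% with no mismatch, 2.98% with 2 mismatches and 0.142% around the centre of the strongest peak. The cause of these shifts was not tested beyond what each setting changes by construction. Leaving out the 35 sites with recurrent flanks, also added after seeing the data, moved no value outside its interval.

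No paired analysis was possible because each group has 1 library and the labels carry no replicate numbers. The alternative that leaves out motif copies in repeats was not run, as the genome sequence used does not mark repeats. Depth limits the lists: with medians of 6.40 to 9.50 normalized tags most forkhead-motif sites lie near the calling minimum, and a site missing from a list can have had tags below it.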
